A study of Mus musculus with 32 samples.

Results

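Brain-derived neurotrophic factor and the receptors that bind the neurotrophins or their precursors were followed here as a set of 5 genes of the 55573 in the count table: the ligand gene Bdnf, the Trk receptor genes Ntrk2 (TrkB) and Ntrk3 (TrkC), the low-affinity receptor gene Ngfr (p75) and the sorting receptor gene Sort1 (sortilin). They were chosen by symbol, and all 5 were found. The study grew mouse hippocampal neurons on porous membranes, through which neurites pass while somas stay on top, and compared the RNA of both compartments with and without depolarisation and with and without Mettl3, the enzyme that writes N6-methyladenosine (m6A) into mRNA. RNA-seq covered 16 libraries in 8 groups of 2, each made from 50 ng of RNA, and DART-seq, which reads m6A as C-to-U editing (C2U) next to the methylated base, covered 16 further libraries of the same 8 groups.

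WT neurons came from C57BL/6 pups and Mettl3 KO neurons from Mettl3Flox/Flox pups, so that genotype cannot be told apart from strain and culture. Neurons of both genotypes received AAV-hSyn-Cre-P2A-dTomato at 50000 vg per cell at DIV 7, in which the human synapsin promoter drives Cre in neurons and not in glia. All cultures were silenced with 1 µM TTX and 50 µM D-AP5 for 16 h from DIV 14. Ctrl cultures received no KCl, KCl cultures received 55 mM KCl for 2 h, and all were collected after 15 days. Pups of a litter were pooled without regard to sex, a replicate was a separate litter, and the study used neurons of the same litter for Ctrl and KCl, although the labels do not say that the replicate number marks the litter. The soma fraction can also hold neurites that did not pass the membrane. In bulk RNA of this kind, fewer cells of a type and less RNA per cell cannot be told apart.

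BDNF is made as a precursor, packed into dense-core vesicles and released by active neurons. Mature BDNF acts through TrkB, whereas the precursor forms of neurotrophins bind p75 together with sortilin, which also sorts BDNF into the regulated pathway. TrkC is the receptor of neurotrophin-3. Bdnf transcription starts at several promoters, all of which are spliced to the same coding exon, and it is a classic activity-induced gene whose mRNA can be carried into dendrites. Ntrk2 and Ntrk3 each give full-length receptors with a kinase domain and truncated receptors without one, and the truncated TrkB form is prominent in astrocytes.

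On GRCm38, Bdnf (ENSMUSG00000048482) lies at chr2:109674700-109727007 on the plus strand, Ntrk2 (ENSMUSG00000055254) at chr13:58806569-59133970 on the plus strand, Ntrk3 (ENSMUSG00000059146) at chr7:78175959-78738012 on the minus strand, Ngfr (ENSMUSG00000000120) at chr11:95568818-95587735 on the minus strand and Sort1 (ENSMUSG00000068747) at chr3:108284082-108361511 on the plus strand. The union of annotated exons, by which levels per kilobase were computed, has 6217 bases for Bdnf, 19292 for Ntrk2, 30170 for Ntrk3, 3446 for Ngfr and 7569 for Sort1. For Ntrk2 and Ntrk3 it joins the exons of several receptor forms, so their level per length understates that of any single form.

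Sequences are shown for the 1 start window of the members that held a searched motif, as a description that no result below addresses, and for the DART-seq sites of highest editing in each member. Sequence windows were taken from the GRCm38.p6 assembly. RefSeq lists 7 starts of Bdnf with a window, 1 of Ngfr and 1 of Ntrk2. Windows from 250 bases before to 50 after each start were searched on both strands for TGACGTCA (the consensus element), TCACGTCA (a variant of it), their shorter core TGACG and CACGTG (an E-box). The core lies on both strands of the consensus element and on 1 strand of the variant. Of 32851 such windows in the mouse table, 1.79% held TGACGTCA, 0.441% TCACGTCA, 20.8% TGACG and 7.15% CACGTG. Among the 9 windows of the members, only 1 held any of them: the window of the Bdnf start at chr2:109692436, with TCACGTCA beginning at position -38 from the start and that core within it on the minus strand. The 250 bases before that start, chr2:109692186-109692435 on the plus strand, with the motif in capitals, were:
Bdnf start window: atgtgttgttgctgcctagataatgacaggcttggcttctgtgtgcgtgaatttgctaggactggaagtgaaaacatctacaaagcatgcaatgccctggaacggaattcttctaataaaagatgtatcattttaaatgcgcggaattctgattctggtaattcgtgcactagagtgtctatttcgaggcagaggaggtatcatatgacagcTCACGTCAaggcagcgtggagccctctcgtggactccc
The counts are per gene, so they do not say which start was used.

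The sites below are given 5′ to 3′ on the strand of the gene, with the RAC motif (a purine, the methylated A and the edited C) in capitals and 21 bases in all. All lie in 3′UTR sequence.
Bdnf site 2, chr2:109724641-109724661: ggaattaaAACaatgtcaagg
Bdnf site 6, chr2:109726456-109726476: ttctgagaGACattagtcaaa
Ntrk2 site 9, chr13:58934983-58935003: tccctgcaAACtctctttctt
Ntrk2 site 10, chr13:58935480-58935500: tgtcctaaGACtgaagagggc
Ntrk2 site 13, chr13:59129004-59129024: gaaatgaaAACgagagcgagc
Ntrk3 site 1, chr7:78302069-78302089: gtgttggcAACagattaggtc
Sort1 site 5, chr3:108360009-108360029: ttgaatggAACactactttga
Sites 9 and 10 of Ntrk2 and the site of Ntrk3 lie in 3′UTRs that the annotation gives only to transcripts with a short coding sequence, as described with the DART-seq values.

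The libraries held 33789183 to 71394235 counts. Mettl3 was below WT in every Mettl3 KO library of the same compartment, at 6.11 to 11.6 CPM (gene counts per library total, scaled by TMM) in KO soma against 13.2 to 17.3 in WT soma, and at 3.88 to 7.90 in KO neurites against 8.90 to 12.5 in WT neurites. The log2 difference of Mettl3 from WT was -0.73 in Ctrl soma and -1.19 in Ctrl neurites. By the edgeR test used for the members, neither was called (adjusted p = 0.624 and 0.423). Counts over the whole gene do not show the loss of a single exon. The paper reports loss of the floxed exon, near complete loss of METTL3 protein and lower m6A in its knockout cultures. How many of all genes separated the libraries as Mettl3 did was not counted, nor was it for the separations of libraries given below. Both libraries of 1 insert, KCl-treated Mettl3 KO replicate 1, stood apart: the sum of 11 astrocyte markers was 9592 CPM in its soma and 18572 in its neurites against 1201 to 7152 in the other 14 libraries, that of 7 oligodendrocyte-lineage markers 3550 and 7037 against 57.2 to 202.5, that of 7 microglial markers 228.3 and 165.9 against 10.7 to 33.7, and that of 12 fibroblast and vessel markers 152.2 and 766.4 against 17.2 to 97.6. The sum of 10 neuronal markers was 2524 and 2215 CPM there against 4155 to 13385. Outside that insert the astrocyte sum was highest in Mettl3 KO neurite Ctrl replicate 1, at 7152 CPM, and at most 3267 CPM in the rest. No marker of these lists was at a count of 0 in any library. Results on Mettl3 KO neurons with KCl are therefore given with and without this insert.

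Per kilobase of exon, Ntrk2 was the member of highest level in each group mean, between 13.4 and 57.4 CPM per kb over the 16 libraries. Its length includes the long 3′UTRs of both receptor forms. Sort1 lay between 5.86 and 9.48, Ntrk3 between 1.77 and 5.93, Ngfr between 0.82 and 6.94, and Bdnf between 1.45 and 21.98 CPM per kb. In Mettl3 KO neurite KCl replicate 2, Bdnf was above Ntrk2, at 21.98 against 20.5 CPM per kb. In KCl-treated WT neurites the level of Bdnf, 16.5 ± 3.65 CPM per kb (mean ± SD, n = 2), did not differ beyond that spread from the 19.5 ± 0.75 of Ntrk2.

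**Figure D1:**
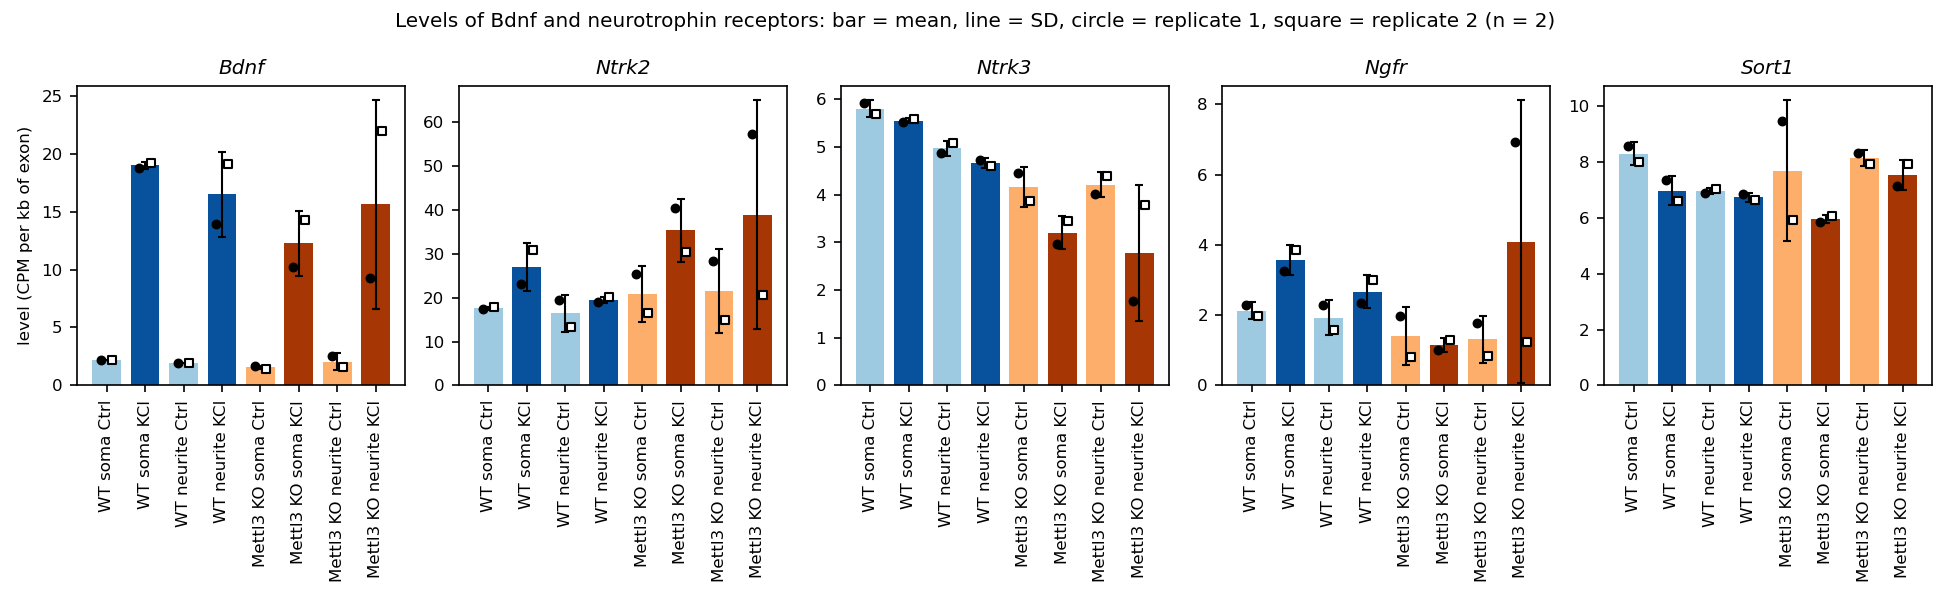
Level of each member in CPM per kb of exon (y axis, from 0) in the 8 groups (x axis); bars are means of 2 libraries, lines the SD, circles replicate 1 and squares replicate 2. Bdnf separates KCl from Ctrl in every compartment and genotype, while Ntrk2 and Ngfr are highest in the neurites of KCl-treated Mettl3 KO replicate 1, at 57.4 and 6.94 CPM per kb.

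Bdnf, the ligand, rose with KCl in both compartments of WT neurons. In WT soma its level was 13.5 and 13.5 CPM in the Ctrl libraries and 116.8 and 119.2 in the KCl libraries, from 850 to 8387 counts. That was 8.73-fold more (log2 change 3.13, SE 0.15; adjusted p = 4.15e-07). In WT neurites it was 11.8 and 12.2 CPM without KCl and 86.5 and 118.6 with it, 9.06-fold more (log2 3.18, SE 0.153; adjusted p = 9.92e-07). Ctrl and KCl libraries did not overlap in either compartment, and the neurite KCl libraries were farther apart than those of soma. The share of all genes without such overlap was not counted. The call of a KCl response required 2-fold and an adjusted p of at most 0.05, which 6.70% of 24060 genes passed in soma and 5.03% of 22059 genes in neurites, and Bdnf was the only member to pass in each.

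The rise of Bdnf did not differ between soma and neurites beyond its error. In Ctrl neurites against Ctrl soma its log2 change was -0.24 (SE 0.146; adjusted p = 0.268), and with KCl it was -0.19 (SE 0.138; adjusted p = 0.396). No member passed the call of a compartment difference (1.5-fold, adjusted p of at most 0.05), which 13.6% of 23200 genes passed without and 9.60% of 23028 genes with KCl. The change in neurite enrichment with KCl, fitted with a term per insert, was 0.03 for Bdnf on the log2 scale (SE 0.193; adjusted p = 0.999). For this comparison the call was 1.5-fold with p at or under 0.05 before adjustment, which 3.36% of genes and no member passed. Of those genes 465 were higher and 314 lower, whereas with RLE scaling 343 were higher and 447 lower and the value of Bdnf was -0.03. The induced level of Bdnf reached 18.8 and 19.2 CPM per kb in soma and 13.9 and 19.1 in neurites. Of the exon bases of Bdnf, 14.4% (896 bases) overlap the antisense gene Gm45346, and without strand in the counting, reads of both in that stretch cannot be told apart.

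In Mettl3 KO neurons Bdnf was also higher in every KCl library than in any Ctrl library of the same compartment. The levels were 10.3 and 8.99 CPM in Ctrl soma, 63.8 and 88.6 in KCl soma, 15.8 and 9.61 in Ctrl neurites, and 57.6 and 136.6 in KCl neurites. The lower value of each KCl pair came from the insert with high glial markers. The log2 change was 2.99 in soma (SE 0.52, 7.92-fold; unadjusted p = 0.000436, adjusted p = 0.300) and 2.95 in neurites (SE 0.523, 7.75-fold; unadjusted p = 0.000523, adjusted p = 0.381). Neither passed the call in edgeR's quasi-likelihood test, in which 0.00% of 23679 genes in soma and of 22199 in neurites passed, with 1514 and 1328 genes past 2-fold at p of 0.05 or less before adjustment. DESeq2 on the same libraries called 270 and 253 genes, with Bdnf among them at an adjusted p of 0.00022 in both compartments. Without the insert with high glial markers, which leaves 1 KCl library a compartment in the fit, the log2 change of Bdnf was 3.21 in soma (SE 0.449; adjusted p = 0.130) and 3.54 in neurites (SE 0.448; adjusted p = 0.110), next to 3.13 and 3.18 in WT. The common biological coefficient of variation was 0.505 in the 8 KO libraries against 0.151 in the 8 WT libraries.

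The soma response of Bdnf did not differ between genotypes beyond its error: the KO response minus the WT response was -0.17 on the log2 scale (SE 0.512; adjusted p = 0.994), and 0.07 without that insert (SE 0.378). In this comparison 0.00% of 24058 genes passed 1.5-fold with an adjusted p of at most 0.05 in edgeR, 493 were past 1.5-fold at p of 0.05 or less before adjustment, and DESeq2 called 2. Without a filter 236 genes were called, and without Mettl3 KO soma Ctrl replicate 1 there were 1445. In Ctrl soma Bdnf was 9.62 ± 0.9 CPM in Mettl3 KO and 13.5 ± 0.028 in WT (mean ± SD, n = 2 each), with both KO libraries below both WT libraries, but the log2 difference of -0.46 (SE 0.36) had an adjusted p of 0.757. The share of all genes separated in this way was not counted. In Ctrl neurites the KO libraries lay on either side of the WT pair, and the log2 difference was 0.06 (SE 0.355; adjusted p = 0.997). The share of genes that passed between genotypes was 0.185% in Ctrl soma and 0.188% in Ctrl neurites, and no member was among them. These shares rest on single libraries: against 44 genes in soma, 2705 were called without Mettl3 KO soma Ctrl replicate 1, 14 without replicate 2 of that group, and 5 and 4 without WT soma Ctrl replicate 1 or 2, and against 41 in neurites, 4 to 14 were called without any 1 of the 4 libraries compared.

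**Figure D2:**
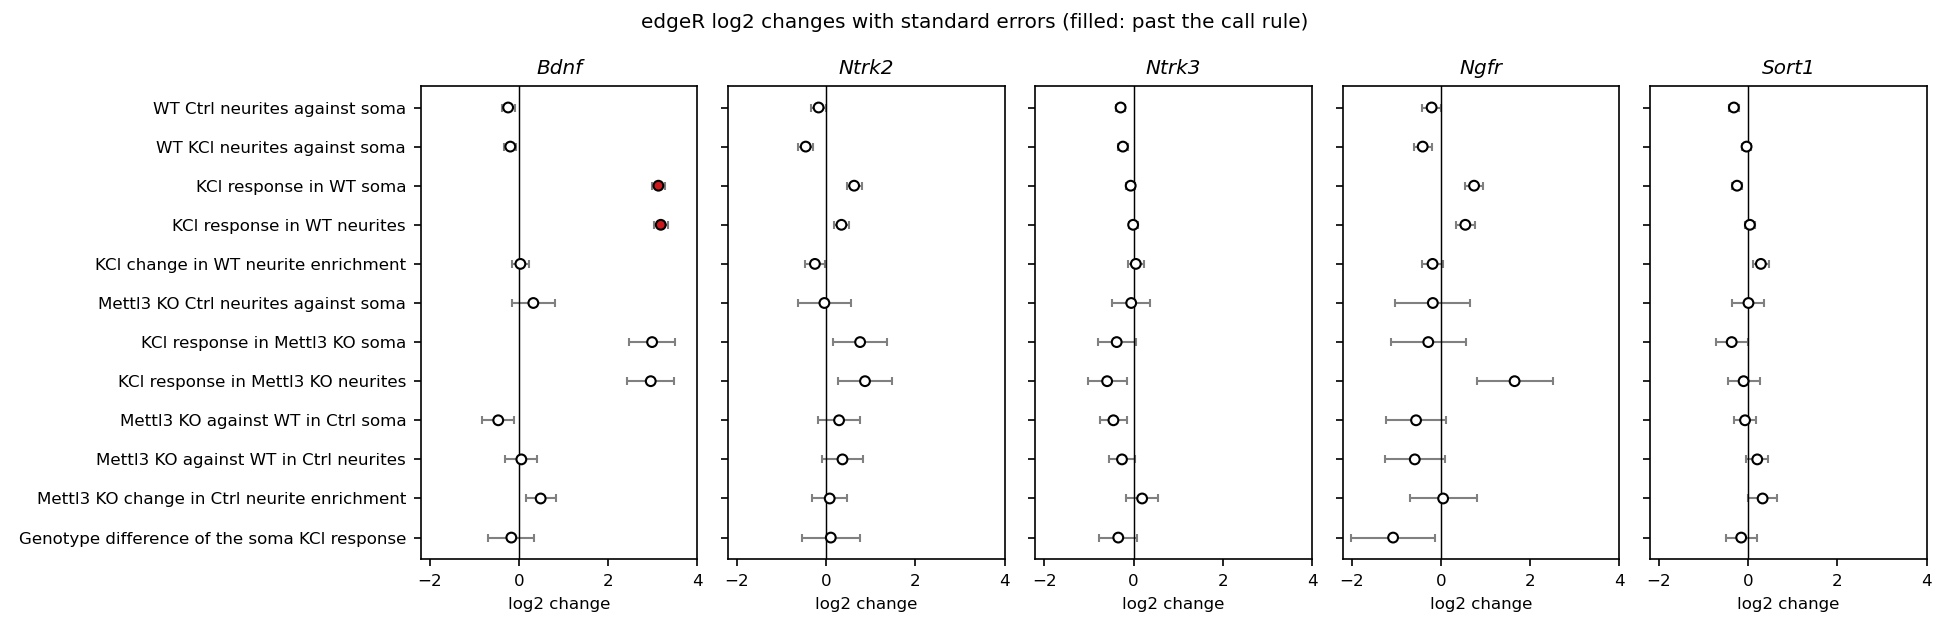
Log2 change (x axis) of each member in the 12 comparisons (y axis) from edgeR, with standard errors as bars; filled symbols passed the call of that comparison. Only the KCl responses of Bdnf in WT soma and WT neurites, 3.13 and 3.18, are filled, and the errors are wider in every comparison that uses Mettl3 KO libraries.

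Ntrk2, the receptor of BDNF, was present at 258.8 to 596.4 CPM in WT neurons. In WT soma it was at 334.2 and 343.1 CPM in Ctrl and 446.1 and 596.4 in KCl libraries. These did not overlap, and the share of all genes without overlap was not counted. The log2 change of 0.63 (SE 0.17, 1.54-fold) had an adjusted p of 0.0345 but was under the 2-fold bound, so it was not called. That adjusted p ran from 2.62e-05 to 0.895 over the other settings and fits, and without WT soma KCl replicate 2 the change was 0.39. In WT neurites Ntrk2 was at 374.1 and 258.8 CPM in Ctrl and 366.3 and 386.7 in KCl libraries, which overlap (log2 0.34, SE 0.173; adjusted p = 0.279). In some WT comparisons astrocyte markers moved with Ntrk2 and in others they did not. Their sum was 1201 and 1218 CPM in Ctrl soma against 1624 and 1638 in KCl soma, the sum of neuronal markers there was 5247 and 5674 against 6734 and 6816, and in Ctrl neurites the library with more Ntrk2 held 3267 CPM of them against 2030 in the other. Within KCl soma, however, the sums of astrocyte markers were alike while Ntrk2 was at 446.1 and 596.4 CPM, and between compartments these markers were higher in all WT neurite libraries (2030 to 3267 CPM) than in all WT soma libraries (1201 to 1638), whereas the group means of Ntrk2 were lower in neurites than in soma, without a call. Their part in the levels of Ntrk2 was not tested.

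Between compartments, Ntrk2 in WT neurites was at a log2 change of -0.17 from soma without KCl (SE 0.172; adjusted p = 0.515) and -0.46 with KCl (SE 0.171; adjusted p = 0.105). With KCl both neurite libraries were below both soma libraries. Without WT soma KCl replicate 1 the latter change was -0.64 and passed the call (adjusted p = 0.0219), so this call depends on 1 library.

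In Mettl3 KO neurons Ntrk2 spread more widely. It was at 489.2 and 316.4 CPM in Ctrl soma, 778.5 and 584.8 in KCl soma, 545.1 and 285.6 in Ctrl neurites, and 1107 and 395.4 in KCl neurites. Replicate 1 was the higher one in all 4 groups, and in each group it also had the larger sum of astrocyte markers. The log2 KCl response was 0.76 in KO soma (SE 0.599; adjusted p = 0.773) and 0.87 in KO neurites (SE 0.595; adjusted p = 0.737). Without the insert with high glial markers these were 0.54 (SE 0.546) and 0.05 (SE 0.547). Against WT, Ntrk2 was at a log2 difference of 0.29 in Ctrl soma (SE 0.463; adjusted p = 0.892) and 0.36 in Ctrl neurites (SE 0.465; adjusted p = 0.961). The part of the astrocyte content in these levels was not tested.

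**Figure D3:**
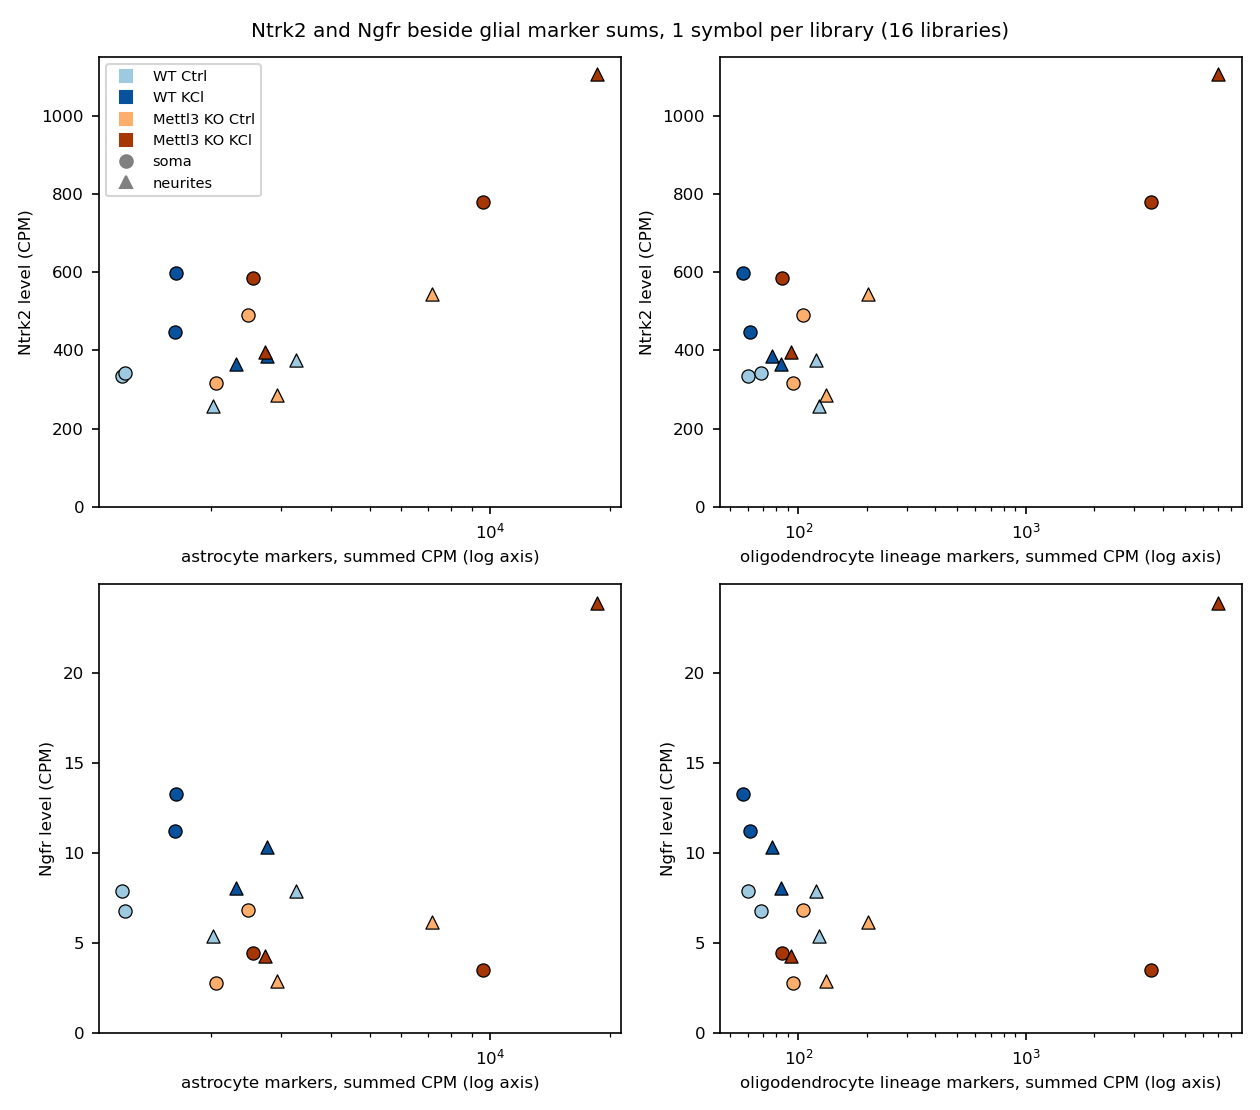
Level of Ntrk2 (top) and Ngfr (bottom) in CPM against the summed CPM of astrocyte (left) and oligodendrocyte-lineage markers (right, log axes), 1 symbol per library, with colour for genotype and treatment, circles for soma and triangles for neurites. The soma and neurites of KCl-treated Mettl3 KO replicate 1 lie far to the right, at 778.5 and 1107 CPM of Ntrk2, whereas Ngfr is high only in the neurites of that insert, at 23.9 CPM.

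Ntrk3, the receptor of neurotrophin-3, differed little between WT replicates. It stood at 178.9 and 171.5 CPM in WT Ctrl soma, 166.5 and 168.5 in KCl soma, 146.8 and 153.5 in Ctrl neurites, and 142.9 and 138.6 in KCl neurites, with every neurite library below every soma library. The share of all genes that separated the compartments in this way was not counted. The log2 change from soma to neurites was -0.29 without KCl (SE 0.103; adjusted p = 0.0756) and -0.24 with KCl (SE 0.104; adjusted p = 0.162), under 1.5-fold in both. Its KCl response was -0.06 in WT soma (SE 0.104; adjusted p = 0.761) and -0.01 in WT neurites (SE 0.103; adjusted p = 0.971).

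All 8 Mettl3 KO libraries were below all 8 WT libraries for Ntrk3, at 53.3 to 134.5 against 138.6 to 178.9 CPM. How many of all genes separated the genotypes in this way was not counted. The log2 difference was -0.45 in Ctrl soma (SE 0.297; adjusted p = 0.712) and -0.26 in Ctrl neurites (SE 0.294; adjusted p = 0.959), so neither passed the call. Without the insert with high glial markers the Ctrl soma difference was -0.49 (SE 0.167; adjusted p = 0.168). The lowest value, 53.3 CPM, was in the neurites of that insert, in which the neuronal markers were lowest too. The sum of neuronal markers was below WT in all KO neurite libraries, at 2215 to 9752 against 11535 to 13385 CPM. In soma the genotypes overlapped, at 2524 to 6490 CPM in KO against 5247 to 6816 in WT. The list includes Map2 and Camk2a, whose neurite enrichment the paper reports as reduced in Mettl3 KO neurons. In WT the sum was also higher in neurites than in soma. In neurites it therefore cannot tell fewer neurons apart from a different location of the marker RNAs. The part of the neuronal content in the level of Ntrk3 was not tested.

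Ngfr, which gives p75, was scarce, with 104 to 1440 counts in a library. In WT soma it was at 7.90 and 6.77 CPM in Ctrl and 11.2 and 13.3 in KCl libraries. These did not overlap, and the share of all genes without overlap was not counted. The log2 change of 0.74 (SE 0.204, 1.68-fold; adjusted p = 0.0352) was under the 2-fold bound, and its adjusted p ran from 0.0045 to 1.00 over the other settings and fits. In WT neurites the libraries were at 7.89 and 5.42 CPM without and 8.04 and 10.3 with KCl (log2 0.55, SE 0.21; adjusted p = 0.149). Neurites and soma of WT neurons were at a log2 change of -0.21 without KCl (SE 0.209) and -0.41 with KCl (SE 0.204), with adjusted p of 0.515 and 0.220.

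In Mettl3 KO neurons, 7 of the 8 libraries held 2.82 to 6.83 CPM of Ngfr, and the neurites of KCl-treated replicate 1 held 23.9 CPM. The soma of the same insert, which was also high in glial markers, held 3.51 CPM, while the fibroblast and vessel markers were at 766.4 CPM in the neurites and 152.2 in the soma. The log2 KCl response in KO neurites was 1.65 (SE 0.854; adjusted p = 0.737), and 0.04 without that insert (SE 0.738). The part of other cells in this value was not tested. In Ctrl neurons the log2 difference from WT was -0.56 in soma (SE 0.663; adjusted p = 0.849) and -0.58 in neurites (SE 0.67; adjusted p = 0.961).

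Sort1, the sorting receptor, stayed within a narrow band of 44.3 to 71.7 CPM. In WT it was at 65.0 and 60.6 CPM in Ctrl soma, 55.7 and 50.0 in KCl soma, 52.0 and 53.4 in Ctrl neurites, and 51.9 and 50.2 in KCl neurites. Ctrl soma was the highest of the 4 WT groups and did not overlap the others, and the share of all genes with such a group was not counted. The log2 change was -0.32 from Ctrl soma to Ctrl neurites (SE 0.108; adjusted p = 0.0624), -0.04 from KCl soma to KCl neurites (SE 0.109; adjusted p = 0.865) and -0.25 with KCl in soma (SE 0.11; adjusted p = 0.178), and none passed. The change in neurite enrichment with KCl was 0.29 (SE 0.176; adjusted p = 0.999). In Mettl3 KO Ctrl soma the libraries were at 71.7 and 44.8 CPM, a wider gap than between any WT libraries. Of the exon bases of Sort1, 4.47% overlap the antisense gene Gm12523.

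Neurite enrichment of the members was also set between genotypes in Ctrl neurons. Within Mettl3 KO neurons the log2 change from soma to neurites was 0.32 for Bdnf (SE 0.476), -0.04 for Ntrk2 (SE 0.598), -0.05 for Ntrk3 (SE 0.421), -0.18 for Ngfr (SE 0.841) and 0.01 for Sort1 (SE 0.358). The smallest adjusted p of these was 0.930, and 0.00% of 22557 genes passed 1.5-fold with an adjusted p of at most 0.05 in edgeR, with 1239 past 1.5-fold at p of 0.05 or less before adjustment and 17 called by DESeq2. The change of enrichment from WT to Mettl3 KO was 0.49 for Bdnf (SE 0.335; adjusted p = 0.952) and 0.32 for Sort1 (SE 0.318; adjusted p = 0.978), and it was 0.05 to 0.19 for Ngfr, Ntrk2 and Ntrk3. No member passed 1.5-fold with p at or under 0.05 before adjustment, which 4.19% of 22942 genes did. Without Mettl3 KO soma Ctrl replicate 1 or the neurite library of the same replicate number, Sort1 was at a log2 change of 0.73 and passed the unadjusted call. The fit took the replicate number as the insert, which the labels do not state. With a term per insert the partner of a library left out adds nothing to the difference, so these fits are nearly the same. In those fits 4930 of 22856 and 4946 of 23068 genes passed, so that the call of Sort1 stands among many.

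Of the other neurotrophin genes, Ntf3, which encodes neurotrophin-3, had in WT Ctrl soma a level per length above that of Bdnf, at 21.4 ± 0.074 CPM per kb against 2.18 ± 0.0045 (mean ± SD, n = 2). Ntf3 fell with KCl in WT neurons. It was at 36.7 and 36.5 CPM in Ctrl soma and 14.6 and 9.52 in KCl soma (log2 change -1.61, SE 0.219; adjusted p = 0.000842), and at 24.7 and 26.3 CPM in Ctrl neurites and 13.4 and 9.08 in KCl neurites (log2 -1.10, SE 0.219; adjusted p = 0.0119). Without WT neurite KCl replicate 2 or WT neurite Ctrl replicate 2 the neurite change of Ntf3 was -0.83 or -1.02 and no longer passed. Ntf5, which encodes neurotrophin-4, stayed at 0.24 to 0.71 CPM in WT.

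Around the members, a list of 84 pathway genes in 8 roles was counted. In the KCl response of WT soma, 3 of 84 rose and 3 fell (7.14% against 6.70% of all genes), and in WT neurites 3 rose and 1 fell (4.76% against 5.03%). The median log2 change of the list was -0.07 and -0.01, next to 0.01 over all genes in each. The genes that rose were the same 3 in both compartments. Npas4, an activity-induced transcription factor that binds Bdnf promoters, rose 246-fold in soma (log2 7.94, SE 0.325; adjusted p = 1.37e-07) and 134-fold in neurites (log2 7.06, SE 0.324; adjusted p = 7.38e-07). Plat, the tissue plasminogen activator that takes part in the cleavage of the BDNF precursor, rose 4.68-fold in soma and 4.08-fold in neurites (adjusted p = 5.36e-05 and 0.000214). Braf, a kinase below Ras, rose 2.71-fold and 2.60-fold (adjusted p = 1.21e-05 and 2.80e-05). Besides Ntf3, the genes that fell in soma were Traf6 (log2 -1.22, SE 0.218; adjusted p = 0.00422), an adaptor of p75, and Rtn4r (log2 -1.17, SE 0.222; adjusted p = 0.00596), the Nogo receptor that pairs with p75. Rtn4r did not pass without WT soma Ctrl replicate 1 (-0.98) or without WT soma KCl replicate 2 (-0.89). In the fit to 16 libraries the soma calls of Ntf3 (-1.53), Traf6 (-1.14) and Rtn4r (-1.09) and the neurite call of Ntf3 (-1.14) were lost. No gene of the 18 Trk adaptors or of the 7 receptor trafficking genes was called in either compartment.

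Between compartments of WT neurons, 12 of the 84 were higher and 3 lower in Ctrl neurites (17.9% against 13.6% of all genes), and 15 were higher and 3 lower with KCl (21.4% against 9.60%), with list medians of 0.04 and 0.12 next to -0.10 and -0.03 over all genes. The share of the list was not tested against the other genes. By role, 4 of 18 Trk adaptors and 4 of 22 kinases and effectors were higher in Ctrl neurites and none lower, and with KCl these were 6 and 7. Of the 13 regulators of Bdnf transcription, 4 were higher and 1 lower in Ctrl neurites. Frs2, an adaptor docked on activated Trk receptors, was 2.98-fold higher in Ctrl neurites (SE 0.133 on the log2 scale; adjusted p = 0.00013) and 2.41-fold with KCl (adjusted p = 0.000524). Rapgef1, the exchange factor of Rap1, was 1.93-fold (adjusted p = 0.000919) and 2.00-fold higher (adjusted p = 0.00103). Shc3, a neuronal Shc adaptor, was 3.39-fold higher in Ctrl neurites (adjusted p = 0.000982), and Mapk3, the ERK1 gene, 1.59-fold higher with KCl (adjusted p = 0.00335). The lower ones were Sqstm1 (log2 -0.67 and -0.71, adjusted p = 0.00216 and 0.00213), which encodes the scaffold p62, Sorcs3, a relative of sortilin (-0.90 and -0.72, adjusted p = 0.00805 and 0.0252), Crtc2, a coactivator of CREB, in Ctrl neurites (-0.74, adjusted p = 0.0137), and Sorl1, another relative of sortilin, with KCl (-0.60, adjusted p = 0.00906). The difference between Ctrl and KCl in these enrichments is the comparison that follows. Of the 12 calls named here, all were lost in the fit to 16 libraries. In Ctrl, Sqstm1 and Sorcs3 were lost without WT soma Ctrl replicate 2 (-0.58 and -0.75) and Crtc2 without either WT soma Ctrl library or WT neurite Ctrl replicate 2 (-0.73 to -0.63). With KCl, Mapk3 was lost without WT neurite KCl replicate 1 (0.60), Sorl1 without replicate 2 of soma or neurites (-0.51 and -0.50), and Sorcs3 without WT soma KCl replicate 2 or either WT neurite KCl library (-0.81 to -0.44). The KCl calls of Sorl1 (-0.58) and Sorcs3 (-0.70) were also lost with the libraries of the groups compared alone.

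For the change in neurite enrichment with KCl, 4 of the 84 were higher and 3 lower (8.33% against 3.36% of all genes), at unadjusted p. Cpe, a carboxypeptidase that sorts the BDNF precursor, was at 0.64 on the log2 scale and Crtc2 at 0.63, while Npas4 was at -0.81, Cadps2, a factor of dense-core vesicle release, at -0.67 and Shc3 at -0.60, each with an adjusted p of 0.999. Each of these 5 calls was lost when 1 of several libraries was left out, those of Cpe and Crtc2 also with RLE scaling and with DESeq2, at 0.57 each, those of Cpe (0.58) and Shc3 (-0.65) without the term per insert, that of Shc3 at a mean count of at least 100 (-0.60), those of Cadps2 (-0.67) and Shc3 (-0.60) with the crossed block, and those of Cpe, Crtc2, Cadps2 and Shc3 in the fit to 16 libraries. In Mettl3 KO against WT the only gene of the list called was Frs2, 1 of 84 in each compartment (1.19% against 0.185% of all genes in Ctrl soma and 0.188% in Ctrl neurites). Frs2 was lower in Ctrl soma (log2 -1.58, SE 0.227; adjusted p = 0.0161) and in Ctrl neurites (-2.15, SE 0.225; adjusted p = 0.00285). The soma call was lost with the libraries of the groups compared alone, with the replicate block, with limma and without either WT soma Ctrl library or Mettl3 KO soma Ctrl replicate 2, with log2 values of -1.60 to -1.44. The neurite call was lost without either Mettl3 KO library (-2.22 and -2.05). Plcg1, a phospholipase that docks on Trk receptors, was the only one called for the change of enrichment in Mettl3 KO (log2 0.68, SE 0.261; adjusted p = 0.934), 1.19% of the list against 4.19% of all genes. The call of Plcg1 was lost without any 1 of the 4 WT Ctrl libraries (0.60 to 0.77), without the term per insert (0.67) and without a filter (0.72). Within Mettl3 KO neurons and for the genotype difference of the KCl response no gene of the list was called, next to 0.00% of all genes in edgeR.

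Over the 8 WT libraries, the genes most like each member in log2 CPM were taken from 15170 genes, as a description. For Bdnf these were Pcsk1 (Pearson r = 0.999), Cwc25 (0.998) and Tiparp (0.997). For Ntrk2 they were Pcdh17 (0.981), Phtf2 (0.979) and Ddb1 (0.978), and for Ntrk3 Xylt1 (0.996), Gm13394 (0.992) and Spint2 (0.986). For Ngfr they were Kidins220 (0.974), Slc9a7 (0.973) and Krt73 (0.972), and for Sort1 Mrto4 (0.978), Bbof1 (0.973) and Esf1 (0.972). The 8 points are 4 groups of 2, so r describes mostly how the groups are ordered, and for Bdnf the step between Ctrl and KCl. Among the members themselves, Ntrk2 and Ngfr were the most alike (r = 0.943).

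DART-seq listed sites in 4 of the 5 members, and Ngfr had none listed. Values are averages that the authors made over libraries, so no spread between replicates can be given, and of the depth of a site only the minimum of 50 reads is known. Ngfr was scarce, at 104 to 1440 counts in an RNA-seq library. Whether its positions reached that minimum in DART-seq is not known, so the absence of sites does not show absence of m6A. The study kept sites that were edited at least 1.5-fold more in WT than in Mettl3 KO and that lie in RAC, so a WT score above the KO score was fixed by the choice of sites. All 31 member sites lay in RAC.

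**Figure D4:**
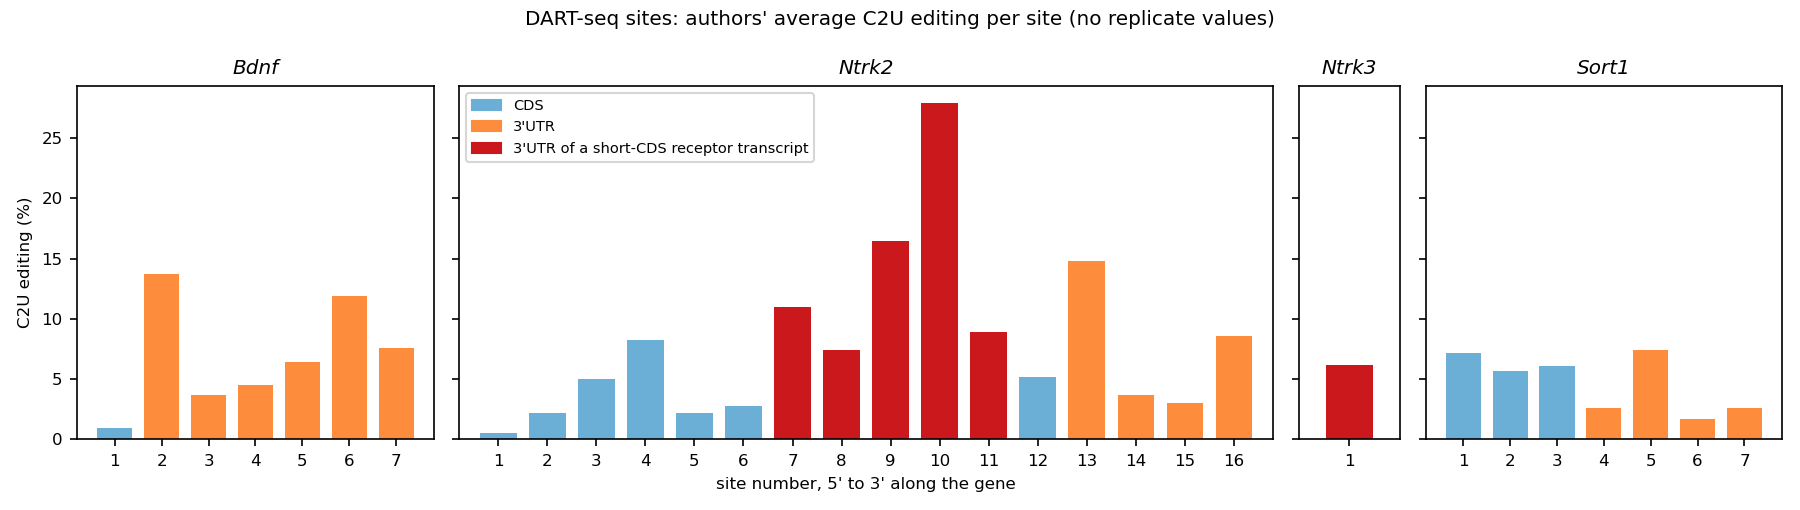
C2U editing in percent (y axis) of each listed site, numbered 5′ to 3′ along the gene (x axis), coloured by coding sequence, 3′UTR and 3′UTR of a receptor transcript with a short coding sequence. The highest site of the members, 27.9%, is site 10 of Ntrk2, in the 3′UTR of the short transcript Ntrk2-202.

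Bdnf held 7 sites, at 0.91% in the shared coding exon and at 3.70% to 13.7% at 6 sites in the 3′UTR that all 11 annotated transcripts share. The highest were site 2 (13.7%) and site 6 (11.9%), whose sequences are given above, and site 7 (7.58%) lies 11 bases after site 6. As every Bdnf transcript carries this 3′UTR in the annotation, the sites do not tell the promoters apart.

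Ntrk2 held 16 sites, at percentile 99.3 of the 5643 scored RNAs. Of these, 6 lay in coding exons shared by full-length and short transcripts, at 0.54% to 8.19%. Another 5, sites 7 to 11, lay in the 3′UTR of Ntrk2-202, whose coding sequence has 1428 bases, and the first of them also in that of Ntrk2-204 with the same coding length. They were edited at 10.9%, 7.39%, 16.5%, 27.9% and 8.89%. The remaining 5 lay in transcripts with 2463 coding bases. Ntrk2-201 and Ntrk2-207 shared 1 site in the coding sequence at 5.15% and 2 in the 3′UTR at 14.8% and 3.67%, and Ntrk2-201 alone had the last 2, at 2.97% and 8.58%. The 3′UTR sites thus fall into a group for each receptor form, and 2 of the 3 highest values were in that of the short form. The deposited counts pool both forms, so the level behind each group is not known.

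Ntrk3 had a single position, at 6.18%, in the 3′UTR of Ntrk3-202 with 1836 coding bases, against 2475 to 2592 in the transcripts of full length. Its line occurs 2 times in the site list, 1 of 84 repeated lines among 18231, and its WT score of 0.124 is 2 times the value of that position. Sort1 held 7 sites, 3 in coding exons at 5.64% to 7.17% and 4 in the 3′UTR at 1.70% to 7.41%, with the highest at site 5. The median over all sites was 3.54%.

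**Figure D5:**
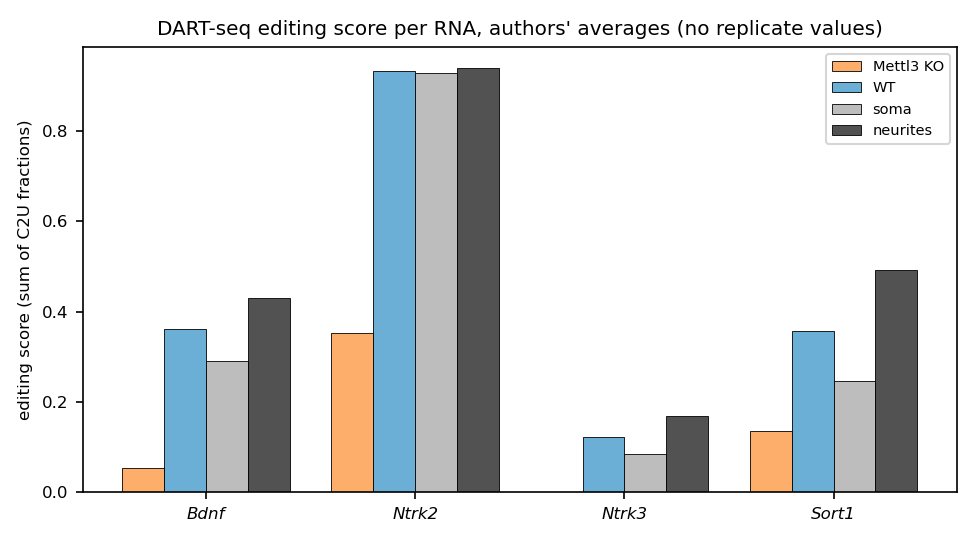
Editing score of each RNA (y axis, sum of C2U fractions over its sites) for the 4 members with sites (x axis), as the authors' averages over Mettl3 KO, WT, soma and neurite libraries. Neurite scores are above soma scores for all 4, by 0.246 in Sort1 and by 0.0117 in Ntrk2.

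The editing score, the sum of average C2U fractions over the sites of an RNA, was 0.363 in WT and 0.0544 in Mettl3 KO for Bdnf, 0.933 and 0.353 for Ntrk2, 0.124 and 0 for Ntrk3, and 0.357 and 0.136 for Sort1. The median WT score over all scored RNAs was 0.103, and the members stood at percentiles 93.1, 99.8, 57.1 and 92.9. The percentile of Ntrk3 rests on its repeated line, as its 1 position entered the score as 2 sites. Counted 1 time, its WT score would be 0.0618, under that median. Divided by the number of listed sites, the WT score was 0.0518 for Bdnf, 0.0583 for Ntrk2, 0.0618 for Ntrk3 and 0.0511 for Sort1, a narrower range than that of the scores. The listed percentages of Bdnf sum to 48.7%, above its score, and those of Ntrk2 to 127.6%, so site values and scores are not the same averages.

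Soma and neurite scores cover both treatments. They were 0.292 in soma and 0.430 in neurites for Bdnf, 0.927 and 0.939 for Ntrk2, 0.0844 and 0.170 for Ntrk3, and 0.247 and 0.493 for Sort1. Ntrk3 is entered with 2 sites for its 1 position here too. Of all scored RNAs, 68.8% had a higher score in neurites, and the medians were 0.0888 in soma and 0.116 in neurites, so the direction of the 4 members was that of most RNAs. The neurite scores of Sort1 and Ntrk3 were about 2 times their soma scores, and the RNA level of neither was called in the same comparison of WT neurons. On the log2 scale it was at -0.32 without and -0.04 with KCl for Sort1, and at -0.29 and -0.24 for Ntrk3. For Bdnf, whose level went up about 9-fold with KCl in both compartments, the pooled scores do not say in which treatment the sites were read.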

How the data were processed

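RNA-seq counts and DART-seq averages were analysed. The deposited counts are whole-number fragments on the exons of each gene: the authors aligned reads with STAR 2.7.7a to mm10 (GRCm38) and counted with featureCounts 2.0.1 on the Ensembl annotation named in the header, with reads of several places counted and no strand option. The deposited DART-seq score is a sum of C2U fractions per RNA, and the value deposited for each site is also a C2U fraction, both averaged by the authors over libraries after duplicate removal, with sites of at least 50 reads and 3 mutations. The authors' DESeq2 tables hold a mean signal (counts divided by size factors), fold changes and p-values; only their IDs and symbols were used, and none of the authors' comparisons, those in the DART-seq table included.

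Genes that averaged 10 counts or more over the groups compared were tested in edgeR 4.0.16 (R 4.3.3; TMM; two-sided quasi-likelihood test; Benjamini-Hochberg adjustment over every gene tested), on the 8 WT, the 8 Mettl3 KO or, between genotypes, all 16 libraries. Standard errors are the log2 change over the root of F. Changes of neurite enrichment had a term per insert, after the study's methods, with the replicate number taken as the insert. CPM are TMM-scaled. The 37 mitochondrially encoded genes, at 0 throughout, were left out. The steps were tested on simulated data. Reads without molecular identifiers are not independent molecules, and p-values measure only the spread between 2 litters a group. Alternatives were DESeq2 1.42.0, limma 3.58.1 (voom, a variance factor per genotype), RLE scaling, other filters, other sets of libraries, the replicate number as a block and each library left out; a crossed block was added after the data were seen. Sites were placed on GENCODE M21 and sequences read with samtools from GRCm38.p6 and RefSeq start windows (Bdnf, Ngfr and Ntrk2; none used for Ntrk3 and Sort1). Python 3.11.15, pandas 2.3.3 and matplotlib 3.10.9 were used.

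The members, the gene lists (84 pathway genes, 5 marker lists), tests and thresholds were chosen with earlier results of these data known. Named are the members in each comparison, pathway genes called (at most the 3 of smallest p per direction and comparison), Ntf3 and Ntf5, the 3 genes most like each member (an average of 100 counts or more; log2 CPM, prior count 2) and Mettl3. Some genes that this rule names are not reported here.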

Additional observations from a re-analysis of the deposited data

How the results depend on the processing

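Of 765 alternatives of the 60 member values, 690 kept direction and side of the threshold, 66 changed the sign of an uncalled value, and 9 passed the call. Bdnf passed in WT soma and WT neurites under every alternative run. In Mettl3 KO neurons 1 member, Bdnf, was called in soma with DESeq2 (2.99), without a filter (3.02) and in the 16-library fit (3.03), and in neurites likewise (2.95, 2.93 and 3.03), with 0 called otherwise. Leaving out 1 library gave 0 to 1 called members for WT KCl neurites against soma and for the Mettl3 KO change in enrichment. Values near 0 changed sign as follows, and the cause was not tested. In the 16-library fit Ntrk3 was at 0.010 and Sort1 at -0.0013 for the KCl response in WT soma and neurites. Without a filter Ntrk3 was at 0.014 in WT neurites, and Sort1 was at -0.00021 with DESeq2 and -0.00034 with RLE. For the KCl change in enrichment, DESeq2, RLE and 16 libraries gave -0.031, -0.031 and -0.080 for Bdnf and -0.013, -0.013 and -0.061 for Ntrk3. Sort1 was at -0.020 in KO neurites against soma with a mean count of at least 100. Without the KCl-treated KO insert 1, Sort1 was at 0.071 in KO neurites, and the genotype difference was 0.074 for Bdnf and -0.095 for Ntrk2.

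The replicate numbers did not establish pairs: the difference between replicates in soma and that in neurites had a correlation over genes of -0.137 in WT Ctrl and 0.0329 in WT KCl, and of 0.0759 and 0.897 in Mettl3 KO, where the last value ties the soma and neurites of the KCl-treated inserts. Between Ctrl and KCl it was 0.0760 in soma and -0.0753 in neurites of WT, and 0.147 and 0.189 in KO. With the replicate block the KCl response of Ngfr in KO soma was 0.015, and without the block its change in enrichment in KO was -0.032; the block changed no other direction or call of a member. It gave 4 called genes in KO soma with KCl against 0, and 296 without it against 962 for the KO change in enrichment. The crossed block, added after the data were seen, gave 887 against 779 genes for the KCl change and 1035 against 962 for the KO change.

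Leaving out 1 library moved the following log2 values across 0. Neurites against soma in WT Ctrl ran from -0.42 to 0.047 for Ntrk2 and -0.47 to 0.0070 for Ngfr, and in WT KCl from -0.42 to 0.0049 for Bdnf and -0.097 to 0.055 for Sort1. The WT KCl response ran from -0.084 to 0.038 for Ntrk3 in soma, and in neurites from -0.076 to 0.055 for Ntrk3 and -0.015 to 0.088 for Sort1. The KCl change in enrichment ran from -0.15 to 0.22 for Bdnf, -0.62 to 0.00015 for Ntrk2 and -0.14 to 0.14 for Ntrk3. KO neurites against soma ran from -0.41 to 0.45 for Ntrk2, -0.17 to 0.19 for Ntrk3, -0.70 to 0.74 for Ngfr and -0.31 to 0.53 for Sort1. The KO KCl response ran from -0.79 to 0.48 for Ngfr in soma, and in neurites from -0.035 to 1.27 for Ntrk2 and -0.041 to 2.26 for Ngfr. KO against WT ran from -0.14 to 0.59 for Ntrk2 and -0.53 to 0.25 for Sort1 in soma, and from -0.29 to 0.37 for Bdnf and -0.11 to 0.76 for Ntrk2 in neurites. The KO change in enrichment ran from -0.17 to 0.34 for Ntrk2, -0.079 to 0.47 for Ntrk3, -0.14 to 0.26 for Ngfr and -0.084 to 0.73 for Sort1. The genotype difference ran from -0.41 to 0.039 for Bdnf, -0.19 to 0.53 for Ntrk2 and -0.47 to 0.30 for Sort1.

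Counts over all genes moved by more than 1.5 times as follows. For neurites against soma in WT the 16-library fit called 0 and 0 genes against 3145 and 2211. For the WT KCl response it called 341 against 1611 in soma and 263 against 1109 in neurites, a mean count of at least 100 gave 1040 and 643, and no filter gave 1776 in neurites. For the KCl change, against 779, counts were 498 with DESeq2, 1457 without a filter, 425 at a mean of 100, 291 with 16 libraries (median shift -0.111) and 0 on adjusted p. Against 0 in KO, DESeq2 gave 17, 270 and 253 for neurites against soma and for KCl in soma and neurites, no filter 101, 799 and 441, the 16-library fit 277 and 223 with KCl, and leaving out insert 1 gave 19 and 12. For KO against WT in soma and neurites, against 44 and 41, DESeq2 gave 417 and 313, the groups alone 0 and 136, limma 18 and 23, no insert 1 419 and 270, and no filter 72 in soma. The KO change, against 962, gave 1584 with DESeq2, 2667 without a filter, 569 at a mean of 100 and 0 on adjusted p, and the genotype difference, against 0, gave 2 with DESeq2 and 236 without a filter. Leaving out 1 library gave 1068 to 3694 and 752 to 2395 genes for neurites against soma in WT Ctrl and KCl, 812 to 1522 and 576 to 1186 for the WT KCl response in soma and neurites, 518 to 1666 for the KCl change, 246 to 4946 for the KO change, 4 to 2705 and 4 to 14 for KO against WT in soma and neurites, and, against 0, up to 1119 for KO neurites against soma, 3 for KCl in KO neurites and 1445 for the genotype difference. The lowest counts came without WT soma Ctrl replicate 2 (1068 and 4), WT neurite KCl replicate 1 (752), WT soma Ctrl replicate 1 (812), WT neurite KCl replicate 2 (576) and WT neurite Ctrl replicate 2 (246), and those of 1119, 1445 and 2705 without Mettl3 KO soma Ctrl replicate 1. Of the 379 alternatives of 31 pathway values, 281 kept the call and 98 lost it.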
